A study of Homo sapiens with 4 samples.

Results

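The genes described here are 39 known targets of the hypoxia-inducible factors (HIFs) that lie outside glycolysis, read in LASCPC-01 cells under PBS or fluoxetine. They were taken by gene symbol from a list that was put together with earlier results of these data known, and all 39 are among the 16376 genes listed for these samples. LASCPC-01 is a human neuroendocrine prostate cancer (NEPC) line that was generated with NMYC and activated AKT1, and all samples share that background and the genotype label WT. The 2 control samples received PBS, and the other 2 received fluoxetine, an antidepressant that blocks the serotonin transporter. The labels place every sample at day 3 and give no dose, whereas the study's text gives 5 µM for 48 h. The fluoxetine samples carry the letters PP in their titles beside a treatment given as fluoxetine. All samples come from 1 line, and no source says whether the 2 samples of a group were separate cultures, so the p-values measure the spread between these samples only, which may be technical.

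HIFs are transcription factors whose alpha subunit is hydroxylated by oxygen-dependent prolyl hydroxylases and then degraded, so that it builds up when oxygen is scarce. The stabilised factor pairs with ARNT and binds hypoxia response elements, whose core reads ACGTG or GCGTG. Besides glycolysis, its targets serve blood vessel growth, collagen modification, removal of mitochondria, histone demethylation, glycogen storage and feedback transcription. Signalling through AKT and mTOR is known to raise HIF activity in tumour cells even at normal oxygen.

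Of the 39 genes, 28 have a promoter in the RefSeq table for GRCh38.p14, taken as the 250 bases before the transcription start and the 50 bases from it on. On either strand, 19 of these 28 promoters (67.9%) held ACGTG, compared with 26.5% of the 10250 promoters of genes tested here and 21.4% of all 35116 promoters in the table. The core GCGTG was found in 15 of the 28 (53.6%), close to the 50.7% among genes tested. Either core was found in 23 of the 28 (82.1%), against 62.9% of the genes tested. The letters CACGTG hold ACGTG on both strands and were counted as a match on each. A match is a description of the letters and does not show a bound factor. Below are the promoters of BHLHE40, BNIP3, P4HA1 and STC2. Of the 39 genes, these 4 are all that were called lower with fluoxetine, by the limma test described below, and have a promoter in the table. Capitals mark ACGTG or GCGTG on either strand, and each promoter is read 5′ to 3′ along its gene.
BHLHE40, chr3:4979187-4979486, plus strand: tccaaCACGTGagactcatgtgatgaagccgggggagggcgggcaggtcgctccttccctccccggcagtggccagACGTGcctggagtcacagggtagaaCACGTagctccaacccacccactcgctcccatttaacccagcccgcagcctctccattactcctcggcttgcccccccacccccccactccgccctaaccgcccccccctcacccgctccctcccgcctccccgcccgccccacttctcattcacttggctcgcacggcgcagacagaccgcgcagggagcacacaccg
BNIP3, chr10:131981874-131982173, minus strand: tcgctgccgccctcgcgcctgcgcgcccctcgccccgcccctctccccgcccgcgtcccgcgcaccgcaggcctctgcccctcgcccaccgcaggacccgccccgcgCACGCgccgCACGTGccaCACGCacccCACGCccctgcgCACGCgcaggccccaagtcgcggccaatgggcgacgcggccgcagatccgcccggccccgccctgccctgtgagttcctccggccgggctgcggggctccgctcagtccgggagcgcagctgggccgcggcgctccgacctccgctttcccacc
P4HA1, chr10:73096817-73097116, minus strand: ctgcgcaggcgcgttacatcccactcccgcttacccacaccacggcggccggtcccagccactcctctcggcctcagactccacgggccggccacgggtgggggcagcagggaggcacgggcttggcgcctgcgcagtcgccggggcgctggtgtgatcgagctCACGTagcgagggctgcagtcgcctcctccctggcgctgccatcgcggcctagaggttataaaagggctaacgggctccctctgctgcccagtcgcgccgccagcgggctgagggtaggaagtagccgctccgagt
STC2, chr5:173328365-173328664, minus strand: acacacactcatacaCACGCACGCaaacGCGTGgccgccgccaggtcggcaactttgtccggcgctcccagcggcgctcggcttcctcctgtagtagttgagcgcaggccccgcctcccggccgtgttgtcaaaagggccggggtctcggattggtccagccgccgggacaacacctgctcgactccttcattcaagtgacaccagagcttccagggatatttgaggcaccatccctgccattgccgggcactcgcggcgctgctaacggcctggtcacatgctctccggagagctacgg
The BHLHE40 promoter held ACGTG 4 times, counting both strands of its CACGTG, between 245 and 149 bases before the start. In BNIP3 a CACGTG lay 134 bases before the start among 4 GCGTG matches. P4HA1 had a lone ACGTG match 86 bases before the start. STC2 had 3 GCGTG matches and no ACGTG in this window.

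The authors deposited FPKM, in which fragments are scaled by gene length and by library depth. For 12663 genes averaging 0.1 FPKM or more, log2(FPKM + 0.1) was compared by limma, and p was adjusted over all of these genes (Benjamini-Hochberg). The log2 fold change (log2FC) is fluoxetine minus PBS on that scale, so that a change at low FPKM comes out too small, and SE is its standard error. The library depths behind the FPKM came to between 32873603 and 34831389 reads, found from the whole-number steps of the values. At that depth, 1 read on a gene of 1 kilobase was worth between 0.0287 and 0.0304 FPKM. Epithelial markers summed to 1140 and 1090 FPKM with PBS and to 1236 and 1158 FPKM with fluoxetine, higher in both fluoxetine libraries. Taken singly, EPCAM and KRT8 were higher in both, whereas KRT18 and CDH1 overlapped. The mean of CDH1 was lower with fluoxetine (82.9 FPKM) than with PBS (88.5 FPKM). Of the neuroendocrine markers, INSM1 had between 21.7 and 24.2 FPKM and NCAM1 between 44.3 and 52.0 FPKM, whereas CHGA, CHGB, NEUROD1 and SCG3 were below 0.1 FPKM in every library. Markers of other cell types were low. Fibroblast markers, mainly COL1A1, summed to 2.848 and 3.14 FPKM with PBS and 1.98 and 2.840 with fluoxetine. Endothelial markers summed to 0.2204 and 0.218 with PBS and 0.110 and 0.170 with fluoxetine. Both sums were lower in both fluoxetine libraries, but the fibroblast sum of fluoxetine replicate 2 was nearly that of PBS replicate 1. The marker with the highest mean in each list, COL1A1 and VWF, overlapped between the groups. Leukocyte markers, nearly all CD68, summed to between 2.76 and 3.99 FPKM and overlapped. The part of such cells in the values that follow was not tested. In a bulk culture, fewer cells of a type and less RNA per cell cannot be told apart.

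The hypoxia-induced genes were mostly well expressed: 21 had a mean FPKM of at least 10 over the 4 libraries, 11 lay between 1 and 10, and 7 were below 1. DDIT4, BNIP3 and HILPDA had the highest levels. LOX was the 1 gene under the 0.1 FPKM limit and was not tested. Among the 38 tested, the fitted log2FC was below 0 for 37, where 56.5% of all genes tested were below 0. The median over the 38 was -0.30, beside -0.02 over all genes tested. Both fluoxetine libraries lay below both PBS libraries for 30 of the 38 (78.9%), as for 24.8% of all genes tested. The reverse order was found for JMJD6 alone, against 16.7% of all genes. In lists described below, both fluoxetine libraries were also the lower ones for 75% of 12 sterol genes and 68.4% of 19 hypoxia-induced glycolysis genes. The same held for 60% of 15 ATF4 and CHOP targets and for 12.5% to 50% of the genes in each remaining list. Set against the PBS mean of each gene, the median of the 38 was -0.35 on the log2 scale in fluoxetine replicate 1 and -0.28 in replicate 2. PBS replicates 1 and 2 were at 0.01 and -0.01, which must mirror each other about 0 because their own mean is the reference.

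**Figure D1:**
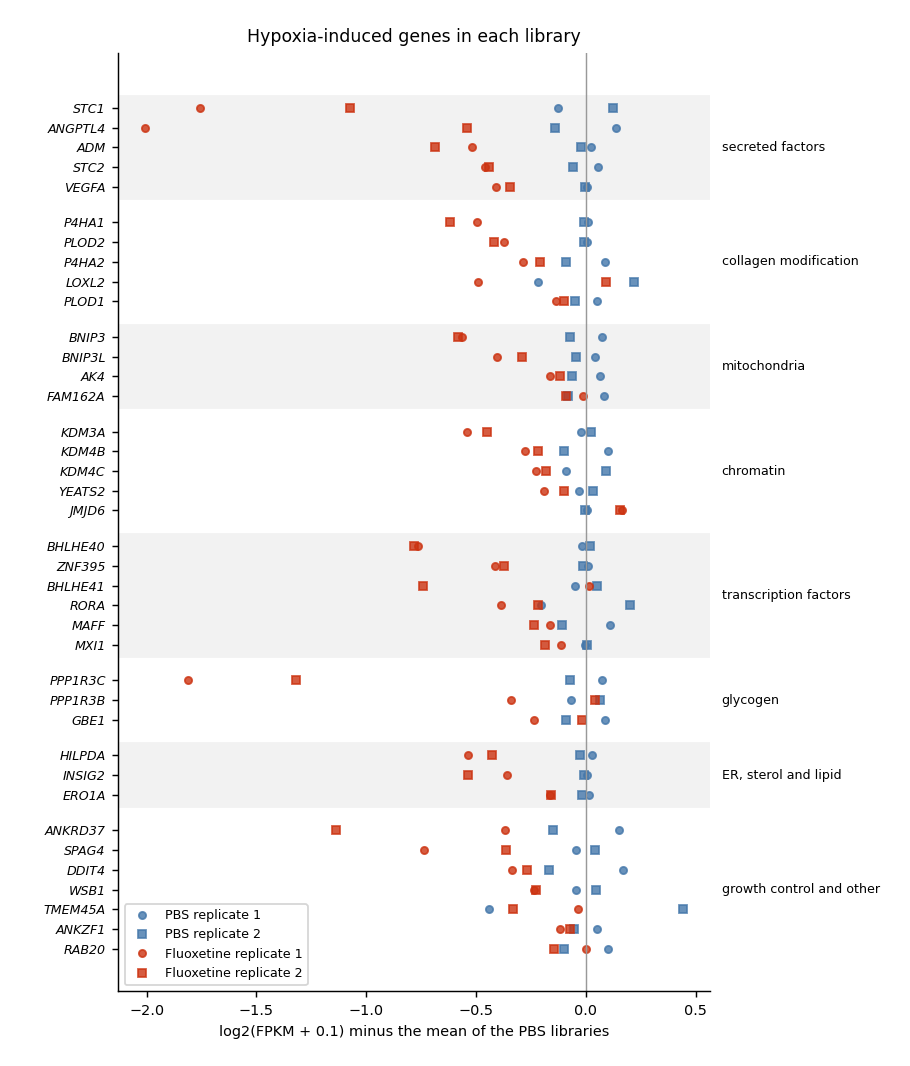
Level of the 38 tested hypoxia-induced genes in each library, as log2(FPKM + 0.1) minus the mean of the PBS libraries of that gene on the x axis, with genes grouped by function. Blue symbols are the 2 PBS libraries and red symbols the 2 fluoxetine libraries; for 30 genes both red symbols lie to the left of both blue ones, and for JMJD6 both lie to the right.

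In all, 6 of the 38 fell with fluoxetine at an adjusted p under 0.05, namely BHLHE40, BNIP3, P4HA1, HILPDA, STC1 and STC2, and none rose. Among all genes tested, 0.213% were called lower (27 of 12663). At an unadjusted p under 0.05, 20 of the 38 were lower and 0 higher, beside 4.79% and 3.73% of all genes (606 lower and 472 higher). That general balance depended on the scaling, being 945 to 245 after rescaling to TPM, 463 to 666 after median centring and 411 to 525 after quantile normalization. Under the same scalings 24, 20 and 19 of the hypoxia-induced genes were lower at that p. Without PBS replicate 1 or without PBS replicate 2, limma called 0 of them (16 and 19 of the 38 had an unadjusted p under 0.05 and were lower). Without fluoxetine replicate 1, BHLHE40 and P4HA1 stayed called and ANKRD37 was called as well, and without fluoxetine replicate 2, BHLHE40 and STC1 stayed called. With 2 libraries against 2, no gene can reach an exact permutation p below 0.33.

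Secreted factors stood first by the size of the change, with all 5 lower in both fluoxetine libraries and a median log2FC of -0.60. STC1, stanniocalcin 1, a secreted glycoprotein that acts on calcium and phosphate handling, spans positions 23841915 to 23854807 of chromosome 8 (GRCh38, GENCODE 29, as for the genes that follow). It had 1.68 and 2.02 FPKM with PBS and 0.475 and 0.824 FPKM with fluoxetine. Behind these stood 214 and 272 reads under PBS, against 64 and 111 under fluoxetine, so both fluoxetine libraries were low, the first lower than the second. Its log2FC was -1.42 (SE 0.23, limma adjusted p = 0.0282), and with 1 library left out it ranged from -1.76 to -1.07, with adjusted p between 0.0264 (without fluoxetine replicate 2) and 0.543 (without PBS replicate 2). Its relative STC2, on chromosome 5 from 173314713 to 173329503, was expressed at a higher level, with 24.7 and 22.9 FPKM under PBS and 17.3 and 17.5 FPKM under fluoxetine. The groups of STC2 did not overlap, and its log2FC was -0.45 (SE 0.08, limma adjusted p = 0.0464). That adjusted p lay closest to the threshold among the 6, and was between 0.197 and 0.304 with 1 library left out. Gene length was taken as the shortest that gave whole read numbers. Of such lengths with a GENCODE 29 exon length, 81.05% lay within 2-fold of it. Deviations from the gene mean correlated with this length across genes in PBS replicate 2 (0.19) and fluoxetine replicate 1 (-0.284). Once that trend had been taken out of every library, the limma adjusted p was 0.112 for both STC1 and STC2. The log2FCs were then -1.40 for STC1 and -0.42 for STC2.

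VEGFA, the main growth factor for blood vessels, had 38.3 and 38.0 FPKM with PBS and 28.7 and 30.0 FPKM with fluoxetine. ADM, adrenomedullin, a vasodilator peptide, had 6.54 and 6.33 FPKM with PBS and 4.47 and 3.96 FPKM with fluoxetine. In both genes the groups were apart by more than the spread within either group. The log2FCs were -0.38 for VEGFA (SE 0.07, limma adjusted p = 0.0676) and -0.60 for ADM (SE 0.11, adjusted p = 0.0511). After the removal of the length trend, ADM passed the limma test (adjusted p = 0.038, log2FC -0.66). ANGPTL4, an inhibitor of lipoprotein lipase, was near the limit of detection, at 22 and 18 reads under PBS, against 0 and 12 under fluoxetine. Its log2FC was -1.27 (SE 0.48, limma adjusted p = 0.532), or -0.54 without fluoxetine replicate 1 and -2.01 without fluoxetine replicate 2, and it went from -0.26 with a pseudocount of 1 to -3.07 with voom on the recovered reads. A count of 0 still allows up to 3 reads, or 0.0441 FPKM, in fluoxetine replicate 1. The sign of the change in these 5 genes held with each library left out.

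Among the enzymes that modify collagen, P4HA1 fell, and the cross-linking oxidases were hardly expressed. P4HA1, the catalytic subunit of collagen prolyl 4-hydroxylase, lies on chromosome 10 from 73007217 to 73096974. It had 19.5 and 19.3 FPKM with PBS and 13.7 and 12.6 FPKM with fluoxetine. Its mean fell by 32.2%, with a log2FC of -0.56 (SE 0.08, limma adjusted p = 0.0170). With 1 library left out the adjusted p was between 0.0497 and 0.235, and was under the threshold only without fluoxetine replicate 1. PLOD2, which hydroxylates lysines in collagen telopeptides, had 40.9 and 40.5 FPKM with PBS and 31.4 and 30.4 FPKM with fluoxetine. The PLOD2 groups lay far apart for their spread, and the log2FC of -0.40 (SE 0.07, limma adjusted p = 0.0510) was just outside the threshold. The other isoenzymes had smaller differences that did not pass the test, with means of 3.06 and 2.56 FPKM for P4HA2 under PBS and fluoxetine and of 34.2 and 31.5 FPKM for PLOD1. LOX and LOXL2, lysyl oxidases that cross-link collagen, were at or below 0.278 FPKM in every library. For LOX there were 10 and 7 reads under PBS, against 7 and 5 under fluoxetine, and the LOXL2 groups overlapped.

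Of the mitochondrial genes, BNIP3 fell. BNIP3, an outer mitochondrial membrane protein that recruits the autophagy machinery, lies on chromosome 10 from 131966455 to 131982013. It had 96.9 and 87.6 FPKM with PBS and 62.3 and 61.6 FPKM with fluoxetine, the second highest level among the hypoxia-induced genes. Its mean fell by 32.9%, with a log2FC of -0.57 (SE 0.07, limma adjusted p = 0.00704) and an adjusted p between 0.0892 and 0.167 with 1 library left out. BNIP3L, also called NIX, had 16.6 and 15.7 FPKM with PBS and 12.2 and 13.2 FPKM with fluoxetine. The BNIP3L groups did not overlap, but its log2FC of -0.35 (SE 0.08) did not pass the test (limma adjusted p = 0.236). AK4, a mitochondrial adenylate kinase, had means of 21.6 and 19.6 FPKM under PBS and fluoxetine, and its groups did not overlap. FAM162A, a mitochondrial protein linked to cell death under hypoxia, had 30.5 and 27.2 FPKM with PBS and 28.5 and 27.0 FPKM with fluoxetine, so that its groups overlapped.

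Histone demethylase genes were lower in both fluoxetine libraries without any passing the test. KDM3A, which removes methyl groups from lysine 9 of histone H3, had 9.68 and 9.99 FPKM with PBS and 6.72 and 7.18 FPKM with fluoxetine. The KDM3A groups were well apart, with a log2FC of -0.50 (SE 0.09, limma adjusted p = 0.0602). KDM4B and KDM4C, of the same enzyme class, had log2FCs of -0.25 and -0.20 (SE 0.09 and 0.12). These were -0.15 for KDM4B without PBS replicate 1 and -0.11 for KDM4C without PBS replicate 2, and the value of KDM4C was -0.0858 without the length trend. YEATS2, a reader of acylated histones, had one of -0.14 (SE 0.08). JMJD6, a lysyl hydroxylase of splicing factors, was the exception, with 10.4 and 10.3 FPKM under PBS and 11.6 and 11.6 FPKM under fluoxetine. Both fluoxetine values of JMJD6 were above both PBS values, and its log2FC of 0.16 (SE 0.08) had an adjusted p of 0.608 from limma.

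BHLHE40 had the smallest adjusted p of the hypoxia-induced genes. BHLHE40, also called DEC1, is a transcriptional repressor of the circadian clock and lies on chromosome 3 from 4979116 to 4985323. It had 19.5 and 20.05 FPKM with PBS and 11.6 and 11.5 FPKM with fluoxetine, a mean that fell by 41.7%. The 2 libraries of each group were close together and far from the other group. The log2FC was -0.77 (SE 0.08, limma adjusted p = 0.00201), between -0.79 and -0.75 with 1 library left out, where the adjusted p was 0.0631 and 0.0978 without PBS replicates 1 and 2. Its close relative BHLHE41 was scarce, with 0.496 and 0.538 FPKM under PBS and 0.522 and 0.268 FPKM under fluoxetine, and its groups overlapped. ZNF395 had 16.4 and 16.1 FPKM with PBS and 12.2 and 12.5 FPKM with fluoxetine, with no overlap and a log2FC of -0.39 (SE 0.08, limma adjusted p = 0.0972). MXI1, a MAX partner that opposes MYC, had means of 21.2 and 19.2 FPKM, and MAFF, a small MAF protein, had means of 8.29 and 7.18 FPKM, under PBS and fluoxetine. RORA, a nuclear receptor of the clock, was at or below 0.361 FPKM in every library.

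None of the 3 glycogen genes passed the test. PPP1R3C, which targets protein phosphatase 1 to glycogen, had the most negative fitted log2FC of all 38, -1.57 (SE 0.41, limma adjusted p = 0.301). It rested on few reads, 26 and 24 with PBS and 1 and 5 with fluoxetine, or 0.311, 0.272, 0.0113 and 0.0565 FPKM. Both fluoxetine libraries were low, and the value was -0.32 with a pseudocount of 1, -2.999 with one of 0.01 and -3.19 with voom on the recovered reads. GBE1, the glycogen branching enzyme, had 9.25 and 8.16 FPKM under PBS and 7.37 and 8.58 FPKM under fluoxetine. PPP1R3B, another glycogen-targeting subunit, had 5.64 and 6.19 FPKM under PBS and 4.65 and 6.09 FPKM under fluoxetine. The groups overlapped for GBE1 and PPP1R3B, in which fluoxetine replicate 1 had the lowest value.

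HILPDA, a lipid droplet protein that inhibits the lipase ATGL, lies on chromosome 7 from 128455849 to 128458418. It had 54.7 and 52.6 FPKM with PBS and 36.9 and 39.9 FPKM with fluoxetine. Its mean fell by 28.4%, with a log2FC of -0.48 (SE 0.07, limma adjusted p = 0.0181) and an adjusted p between 0.102 and 0.229 with 1 library left out. INSIG2, a sterol sensor partner in the endoplasmic reticulum, had 4.004 and 3.96 FPKM with PBS and 3.09 and 2.72 FPKM with fluoxetine. Its groups were apart, and its log2FC was -0.45 (SE 0.12, limma adjusted p = 0.329). ERO1A, the oxidase that drives disulphide bond formation, had means of 25.3 and 22.6 FPKM under PBS and fluoxetine and a log2FC of -0.16 (SE 0.07), with no overlap between its groups.

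Of the other 7 genes, none passed the test, and 5 had both fluoxetine libraries below both PBS libraries. DDIT4, also called REDD1, an inhibitor of mTORC1, had the highest level of all, with 135.9 and 107.3 FPKM under PBS and 95.8 and 100.2 FPKM under fluoxetine. PBS replicate 1 stood above the other libraries, and the log2FC of DDIT4 was -0.30 (SE 0.10, limma adjusted p = 0.464), or -0.13 without that library and -0.47 without PBS replicate 2. ANKRD37 had 9.97 and 8.07 FPKM with PBS and 6.93 and 4.03 FPKM with fluoxetine. The ANKRD37 groups did not overlap, but its fluoxetine libraries differed, and its log2FC of -0.75 (SE 0.19, limma adjusted p = 0.276) became -1.14 without fluoxetine replicate 1 (adjusted p = 0.0204) and -0.37 without fluoxetine replicate 2. In GENCODE 29, 909 exon bases of ANKRD37 also belong to UFSP2, and 847 of DDIT4 to DDIT4-AS1, both on the opposite strand. WSB1, a ubiquitin ligase subunit, SPAG4 and ANKZF1, which acts in ribosome quality control, had log2FCs of -0.23, -0.55 and -0.10. That of SPAG4 rested on at least 23 and 26 reads under PBS, against at least 14 and 19 under fluoxetine. These are the smallest numbers that fit its FPKM, and the true ones can be multiples. RAB20, a small GTPase of vesicle traffic, and TMEM45A had overlapping groups, with log2FCs of -0.07 and -0.18.

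**Figure D2:**
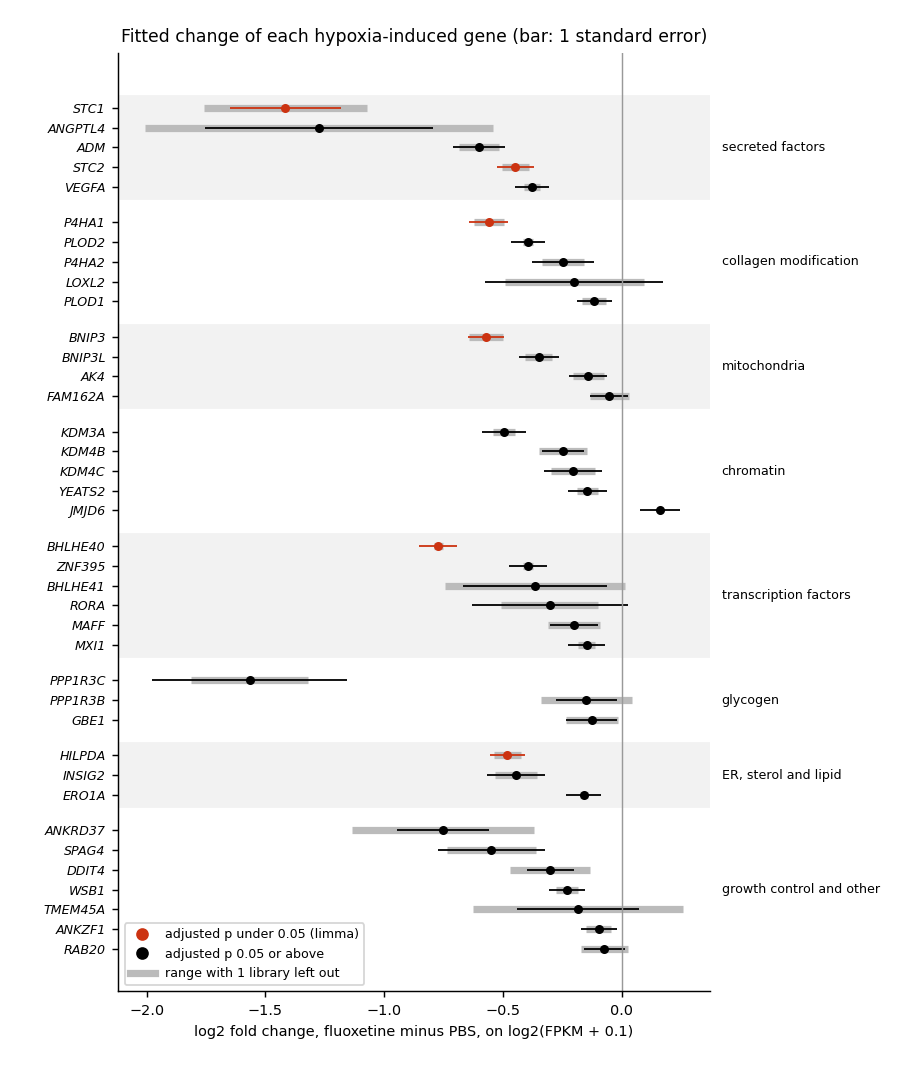
Fitted log2FC of the 38 tested hypoxia-induced genes, fluoxetine minus PBS on log2(FPKM + 0.1), with a bar of 1 SE and a grey band for the range when each library was left out in turn. The 6 genes with an adjusted p under 0.05 are red; the grey band crosses 0 for LOXL2, FAM162A, BHLHE41, PPP1R3B, RAB20 and TMEM45A.

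Ratios of FPKM between related genes were also read in each library. The ratio of BNIP3 to BNIP3L was 5.82 and 5.59 in the PBS libraries and 5.12 and 4.68 in the fluoxetine libraries. P4HA1 was 5.998 and 6.73 times P4HA2 with PBS and 5.51 and 4.79 times with fluoxetine. The ratio of PLOD2 to PLOD1 went from 1.16 and 1.23 to 1.01 and 0.954. STC2 was 14.7 and 11.3 times STC1 with PBS and 36.4 and 21.3 times with fluoxetine. The first 3 ratios were lower in both fluoxetine libraries than in both PBS libraries, as were those of KDM3A to KDM4B and of KDM3A to KDM4C, and the ratio of STC2 to STC1 was higher. The pairs were chosen after their values were seen and the ratios were not tested. The ratio of BHLHE40 to BHLHE41 overlapped between the groups, at 39.4 and 37.3 with PBS and 22.3 and 42.7 with fluoxetine.

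**Figure D3:**
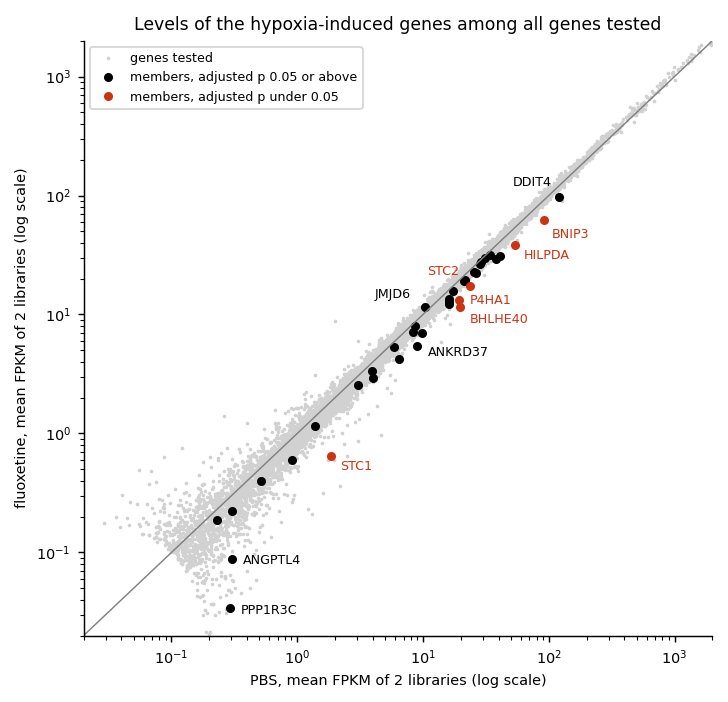
Mean FPKM of the 2 fluoxetine libraries against the mean FPKM of the 2 PBS libraries, both on log axes, for all genes tested (grey) and the 38 hypoxia-induced genes (black, or red with an adjusted p under 0.05). The line marks equal levels, most of the hypoxia-induced genes lie just below it from under 1 to over 100 FPKM, and 19 genes lie outside the axes.

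The other genes of the pathway were described from lists of related genes, without a test over any list. Of the 12 oxygen-sensing genes tested (HIF subunits, prolyl hydroxylases, VHL, FIH and coactivators), none passed the test in limma (1 lower and 0 higher at an unadjusted p under 0.05), and the median log2FC was -0.10. The largest values among them were -0.38 (SE 0.09) for EGLN1, the main HIF prolyl hydroxylase and itself a HIF target, and -0.25 for EPAS1, which encodes HIF-2 alpha. The other prolyl hydroxylases did not follow EGLN1, with log2FCs of 0.13 for EGLN2 and -0.06 for EGLN3, whose groups overlapped. Of 19 hypoxia-induced glycolysis genes tested, 2 fell, PFKFB4 and ALDOC, and the median was -0.15. At an unadjusted p under 0.05 in limma, 9 of the 19 were lower and 0 higher. PFKFB4, which sets the level of fructose 2,6-bisphosphate, had a log2FC of -0.63 (SE 0.09, limma adjusted p = 0.0106), and ALDOC, an aldolase, had -1.25 (SE 0.09, adjusted p = 5.41e-05). Of 14 other hypoxia-induced genes tested, 3 fell and none rose, with a median of -0.15. At an unadjusted p under 0.05 in limma, 6 of the 14 were lower and 1 higher. HMOX1, heme oxygenase 1, was higher at an unadjusted p of 0.0345 (log2FC 0.18, limma adjusted p = 0.552). CA9, the carbonic anhydrase used as a hypoxia marker, had 1.30 and 1.92 FPKM with PBS and 0.242 and 0.390 FPKM with fluoxetine, a log2FC of -2.04 (SE 0.26, adjusted p = 0.00704). The others were SLC16A3, a lactate exporter, at -1.82 and NDRG1, a stress-response gene, at -1.36. Of the 27 genes called lower over the whole table, 6 were among the 39 and 5 were in these further lists.

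Further genes with the same functions were read beside the hypoxia-induced ones, and some of them, such as PDGFB and PGM1, are also known to respond to hypoxia. In the lists of other collagen-modifying enzymes (11 tested), mitophagy genes (13), histone demethylases (17), secreted angiogenic factors (7) and glycogen genes (12), no gene passed the test in limma. At an unadjusted p under 0.05, 0, 1, 0, 1 and 2 of them were lower and 0 higher. Their median log2FCs were -0.04, 0.03, -0.07, -0.08 and -0.12, beside -0.25, -0.24, -0.20, -0.60 and -0.15 for the hypoxia-induced genes of collagen modification, mitochondria, chromatin, secreted factors and glycogen. The largest values in these lists at a mean of at least 1 FPKM were 0.19 and -0.18 for P3H3 and P3H4, -0.35 and -0.18 for OPTN and USP30, -0.28 and -0.25 for KDM5B and JMJD1C, 0.26 and -0.22 for MDK and PDGFB, and -0.27 and -0.20 for PYGL and PGM1. With 1 library left out, the medians of the further lists ranged from -0.05 to 0.08 for collagen, -0.01 to 0.06 for mitophagy and -0.14 to -0.03 for demethylases. They ranged from -0.06 to 0.02 for angiogenic factors and -0.13 to -0.07 for glycogen. Those of collagen, mitophagy and angiogenic factors took both signs. The median of the hypoxia-induced glycogen genes was -0.0174 without fluoxetine replicate 1, nearer 0 than that of the further glycogen genes in the same fit (-0.0861), and -0.34 without fluoxetine replicate 2. For the chromatin genes it was -0.11 without PBS replicate 2 and -0.0858 without the length trend. Whether the lists differ was not tested.

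VEGFA, STC2, DDIT4 and ERO1A are also known targets of the stress factors ATF4, CHOP or XBP1, so stress lists are given beside them. Of 15 ATF4 and CHOP targets none passed the test in limma, with 4 lower and 0 higher at an unadjusted p under 0.05 and a median of -0.11. The most negative log2FC of the list was that of VLDLR, a lipoprotein receptor, at -0.58 (SE 0.21, limma adjusted p = 0.522), with 0.918 and 1.018 FPKM under PBS and 0.580 and 0.648 FPKM under fluoxetine. CHAC1 and ATF3, with means above 1 FPKM, had log2FCs of -0.41 and -0.30. Of 16 genes of the unfolded protein response, none passed the test in limma, 12 had values above 0 (2 with an unadjusted p under 0.05), and the median was 0.06. The chaperone HSPA5 had 165.9 and 171.8 FPKM with PBS and 201.5 and 196.7 FPKM with fluoxetine, a log2FC of 0.24 (SE 0.07, limma adjusted p = 0.407), and its cofactor SDF2L1 had 0.25 with the same adjusted p. Of 12 sterol genes, read beside INSIG2, none passed the test in limma and 11 had values below 0 (1 with an unadjusted p under 0.05), with a median of -0.10. INSIG1 and IDI1 had -0.19 and -0.14. The part of these stress pathways in the values of the hypoxia-induced genes was not tested.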

How the data were processed

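RNA of 2 PBS-treated and 2 fluoxetine-treated LASCPC-01 samples was sequenced as paired-end reads of 150 bp. The authors deposited 1 FPKM value per gene and library. The submitters' processing notes name fastp, HISAT2, HTSeq and GRCh38. The authors used DESeq2 for differential expression, a step not used here. Versions and the annotation are not given in the sources used here, and the library kit differs between the paper (VAHTS) and the labels (stranded TruSeq). Of the 39 genes, 22 share exon bases with another gene in GENCODE 29, 18 of them with one on the opposite strand and 6 with one on the same strand. How such reads were assigned is not known.

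FPKM are not counts, so limma 3.58.1 in R 4.3.3 (lmFit, eBayes with a variance trend) was run on log2(FPKM + 0.1) in place of DESeq2. Genes with a mean under 0.1 FPKM were left out. Whole read numbers were solved for 99.98% of the 16080 genes above 0, as the smallest that fit the values within 0.004 read and a gene length of whole bases, at a depth found from 44 genes with a matching GENCODE 29 exon length. True numbers can be multiples of these. The solving was rerun on FPKM simulated from these same numbers, a check that cannot show where true numbers are multiples. The bound of 3 reads for a count of 0 covers counting error only. The replicates of a group differed by more than counting noise (chi-square over its degrees of freedom was 9.27 in the PBS group and 11.2 in the other), so none was a library deposited again. This does not show that they were separate cultures. The replicate numbers were not treated as pairs.

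The 39 genes and all lists were chosen with earlier results of these data known. Per-library values were given for genes with an adjusted p under 0.05, for genes of at least 1 FPKM with no overlap and an absolute log2 fold change of at least 0.4, for the 3 highest levels and for the largest change of each function, and for others where they clarify an overlap. From each related list, called genes and the 2 largest changes at a mean of at least 1 FPKM were named. VLDLR, HMOX1, EGLN2 and EGLN3 were added after their values were seen. Figures were made with matplotlib 3.10.9 in Python 3.11.15. Promoters came from RefSeq (GRCh38.p14). A further marker gene is not reported here.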

Additional observations from a re-analysis of the deposited data

How the results depend on the processing

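Over 16 alternatives, the genes fitted kept their direction in every fit to all 4 libraries. The removal of the gene length trend (lowess span of 0.3) was chosen after seeing the data. Of 602 values of single genes, 535 kept direction and side of the threshold, 39 lost the call, 20 gained one and 8 changed sign, these 8 with 1 library left out. The signs that turned gave ranges of -0.49 to 0.0923 for LOXL2, -0.13 to 0.0292 for FAM162A, -0.74 to 0.0126 for BHLHE41, -0.34 to 0.0416 for PPP1R3B, -0.17 to 0.0262 for RAB20 and -0.63 to 0.26 for TMEM45A.

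Of the hypoxia-induced genes, 6 were called lower, against 10 with a minimum mean of 1 FPKM, 10 with voom on the recovered reads, 3 with quantile normalization and 0 to 3 with 1 library left out, the lone library being assumed to vary like the other group. Without the filter, limma called 0 (17 with an unadjusted p under 0.05), and without the variance trend 0 (16). Over all genes, the 27 lower and 3 higher calls became 0 and 0 under both of these settings (701 and 474, and 662 and 271, at an unadjusted p under 0.05). They became 49 and 5 with voom, and 2 to 14 and 1 to 3 with 1 library left out. Lower calls were 14 with quantile normalization, and higher calls were 6 with the minimum of 1 FPKM, 5 with median centring and 1 without the length trend. The causes were not tested.

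When the replicate number was a block, 11 hypoxia-induced genes were called lower, and over all genes 47 were lower and 17 higher. The samples share only a number, and this fit leaves 1 residual degree of freedom.

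The median of the hypoxia-induced genes was -0.23 with a pseudocount of 1, -0.25 with the minimum of 1 FPKM, -0.35 after rescaling to TPM, -0.24 with quantile normalization and -0.35 with voom. With 1 library left out it ranged from -0.38 to -0.28. In those fits 33 to 34 genes did not overlap and were lower, beside 36.3 to 43.2% of all genes, and 1 to 2 were higher, beside 29.1 to 32.8%. The depth limits ANGPTL4, LOX, PPP1R3C and SPAG4, for which the smallest read numbers that fit were 26 or fewer in each library. True numbers can be multiples of these.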
